A study of Mus musculus with 8 samples.

Results

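The genes Csf1, Il34, Csf1r, Csf3r, Flt3 and Kit encode growth factors and growth factor receptors of the myeloid lineage, and they are described here across 4 groups of mouse lung macrophages. They were chosen by symbol, as the rows of the deposited expression table whose probe set carried that symbol and no other. Each of the 6 symbols had exactly 1 such probe set, so 6 of the 18782 genes of the table are followed.

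CSF1 (macrophage colony-stimulating factor) and IL-34 are the ligands of CSF1R, the receptor tyrosine kinase that sustains most tissue macrophages and their monocyte precursors. CSF3R is the receptor of G-CSF, the growth factor of neutrophils, and signals through JAK kinases and STAT3. FLT3 and KIT are receptor kinases of the same family as CSF1R, known as receptors of haematopoietic progenitors, with FLT3 kept in dendritic cells and KIT in mast cells. Alveolar macrophages are better known for their need of GM-CSF, which induces the nuclear receptor PPARγ in them after birth.

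Macrophages were sorted from lungs of C57BL/6 mice at day 2 and day 11 after birth and measured on Affymetrix arrays. Controls were PPARg fl/fl, with both copies of Pparg flanked for deletion, and knockouts were CD11cCre/PPARg fl/fl, in which a recombinase driven by the CD11c (Itgax) promoter deletes the flanked part in cells that express CD11c. The 4 groups were control and knockout at either age, with 2 arrays each, and every array held RNA of cells pooled from 2 mice. At day 2 cells of a precursor gate were taken, high in CD11c and F4/80, with either Siglec-F and CD11b both intermediate or CD11b high and Siglec-F low. The labels do not say which genotype was sorted by which. At day 11 cells high in CD11c and autofluorescence and positive for Siglec-F were taken, low in CD11b from controls and high in CD11b from knockouts. Deletion and sort gate therefore cannot be told apart in any genotype difference below. In sorted bulk RNA, fewer cells of a type and less RNA per cell cannot be told apart either.

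The values are log2 signals, with a median of 5.35 over the probe sets of each array. Arrays of the same group correlated at 0.994 to 0.998 over all genes and arrays of different groups at 0.967 to 0.994. The knockout replicate 1 at day 2 stood apart in interferon response genes, a list added after the data were seen: the median signal of its 16 genes was 9.43 there, 5.87 on the other knockout array of that age, and 4.88 to 5.59 on the 6 remaining arrays. Called results of the 6 genes that rest on this array are given below with and without it. Of the other genes named below as called at day 2, Csf3, Cxcr2 and Cpa3 lost their call without it. The Pparg probe set read 10.9 and 11.0 in day 2 controls, 10.6 and 10.7 in day 2 knockouts, 11.2 and 11.1 in day 11 controls and 11.3 and 11.4 in day 11 knockouts. The sources used here do not give where its probes lie relative to the flanked part, so it does not check the deletion. Fabp4, a fatty acid binding protein whose gene is a textbook PPARγ target, was 2.91 ± 0.16 (SE) log2 units lower in knockouts at day 2. Of 17 alveolar macrophage markers, 12 were lower in knockouts at day 2 and 11 at day 11 (7 without the day 11 control replicate 1), with median differences of -0.93 and -0.56. At each age 1 of the 17 was higher in knockouts. The mean signal of the list was 10.8 in both day 2 controls, 8.93 and 9.21 in day 2 knockouts, 11.3 in both day 11 controls and 9.76 and 9.80 in day 11 knockouts, while its median gene stayed at 10.8 to 11.5 on all 8 arrays. Siglecf, the gene of the Siglec-F used in the gate, read 9.85 and 9.90 in controls against 7.13 and 7.46 in knockouts at day 2. Itgam, the gene of the CD11b used in the gate, read 7.87 and 7.79 in day 2 controls and 11 and 10.8 in day 2 knockouts. Its day 11 arrays read 6.22 and 6.32 in controls and 10.9 and 10.7 in knockouts.

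A gene was called where the adjusted p of a linear model over all 18782 genes (limma, Benjamini-Hochberg) was under 0.05, and "rose" and "fell" are used only of called genes. At day 2, 4 of the 6 genes rose in knockouts (Csf1, Csf1r, Csf3r and Flt3) and none fell, where 20.1% of all genes were called, 8.86% higher and 11.2% lower. At day 11, 2 rose (Csf1 and Csf1r) and 1 fell (Csf3r), where 18.6% of all genes were called, 9.34% higher and 9.29% lower. Between day 2 and day 11, 0 of the 6 were called in controls (5.3% of all genes), with 1 of them, Csf3r, at an unadjusted p under 0.05, while 4 fell in knockouts (15.5% of all genes called, 6.71% lower). The median difference of the 6 genes was 0.95 log2 units at day 2 and 0.04 at day 11, beside -0.03 and -0.002 over all genes.

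**Figure D1:**
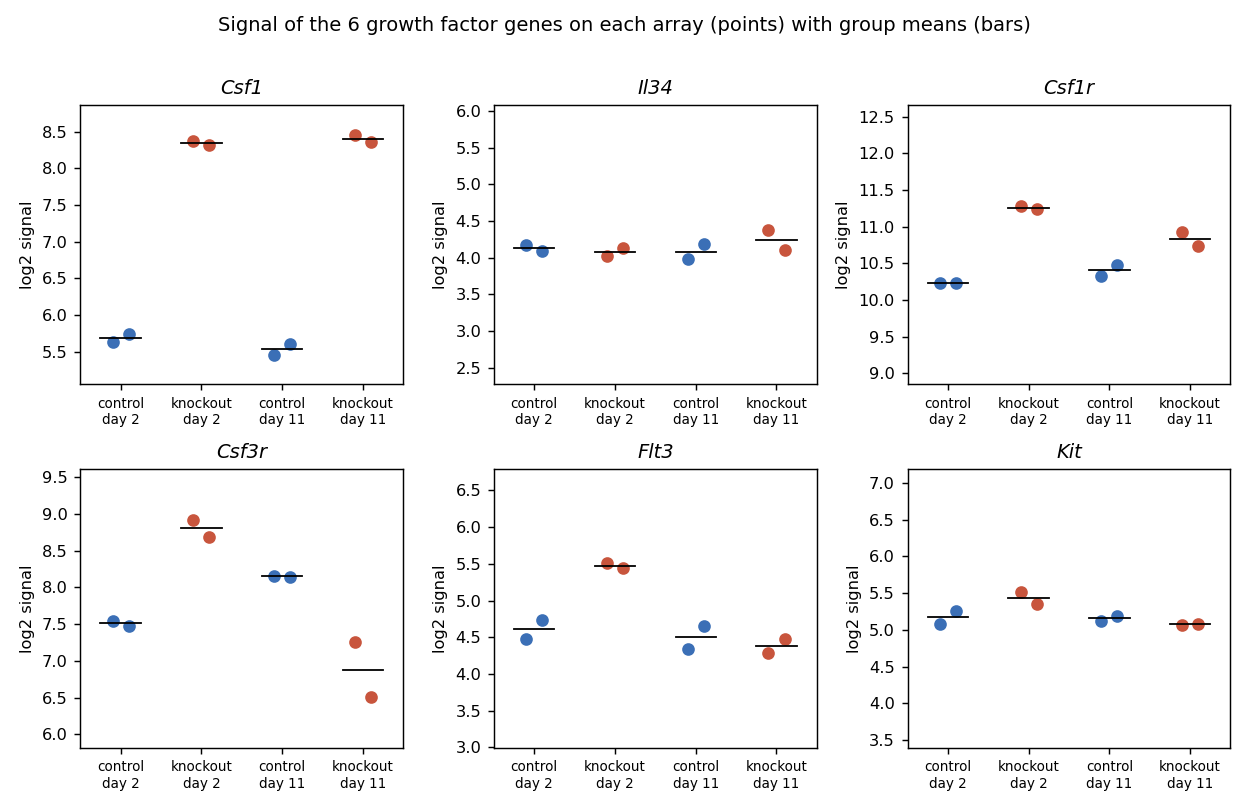
Log2 signal (vertical axes, all spanning the same range) of each growth factor gene on the 8 arrays, by group; points are arrays, blue for controls and red for knockouts, and bars are group means of 2 arrays. Csf1 was above 8.3 on all 4 knockout arrays and below 5.8 on all 4 control arrays, Csf3r was highest in knockouts at day 2 and lowest in knockouts at day 11, and Il34 stayed between 3.98 and 4.37.

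The reference sequence before the start of Csf1, Csf3r and Flt3, which rose together at day 2, is shown first. Windows before RefSeq gene starts (GRCm38.p6) were read for 4 of the 6 genes, namely Csf1, Csf3r, Flt3 and Kit. None was read for Il34 or for Csf1r, which also rose at day 2. The 250 bases before the start are printed 5′ to 3′ on the strand of the gene for Csf1 (chr3:107760470-107760719, minus strand), Csf3r (chr4:126024409-126024658, plus strand) and Flt3 (chr5:147400490-147400739, minus strand). Capitals mark GAGGAA, the core bound by ETS factors of the PU.1 type.
Csf1: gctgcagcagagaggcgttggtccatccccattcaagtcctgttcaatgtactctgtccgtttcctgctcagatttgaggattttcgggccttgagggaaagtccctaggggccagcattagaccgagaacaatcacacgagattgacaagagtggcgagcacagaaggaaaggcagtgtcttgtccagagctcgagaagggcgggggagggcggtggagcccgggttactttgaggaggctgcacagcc
Csf3r: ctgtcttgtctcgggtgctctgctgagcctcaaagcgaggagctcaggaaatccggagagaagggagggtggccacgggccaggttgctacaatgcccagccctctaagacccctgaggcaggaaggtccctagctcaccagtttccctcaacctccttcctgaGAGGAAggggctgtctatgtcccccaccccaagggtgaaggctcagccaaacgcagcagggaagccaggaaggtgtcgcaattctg
Flt3: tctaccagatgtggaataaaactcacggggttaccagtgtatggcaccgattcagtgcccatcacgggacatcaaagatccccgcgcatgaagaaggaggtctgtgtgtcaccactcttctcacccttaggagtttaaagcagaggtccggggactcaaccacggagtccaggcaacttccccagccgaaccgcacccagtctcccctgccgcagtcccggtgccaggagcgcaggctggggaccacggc
Their GC content was 56.4%, 60% and 59.2%. Each window was searched on both strands for GAGGAA, for the AP-1 motif TGANTCA, for the C/EBP motif TTGCNNAA and for the direct repeat bound by PPAR with RXR, which is AGGTCA, any base and AGGTCA again. N stands for any base. The Csf3r window held 1 match, GAGGAA on the gene's own strand beginning 86 bases before the start, and it overlapped no other of these motifs. The Csf1 and Flt3 windows held none of the 4. For Kit, which was called in no genotype comparison, the match was also GAGGAA on the gene's own strand. It began 223 or 227 bases before the start, depending on which RefSeq start was taken. Among 32851 windows of the same length, 23.3% held GAGGAA, 6.75% TGANTCA, 9.56% TTGCNNAA and 0.0335% the PPAR repeat. A match of letters is a description of the window and not a site of binding.

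Of the ligands, Csf1 had the largest knockout difference of the 6 genes at both ages. Its signal was 5.63 and 5.74 on the day 2 control arrays and 8.37 and 8.32 on the day 2 knockout arrays. The day 11 arrays read 5.46 and 5.60 in controls and 8.46 and 8.35 in knockouts. All knockout arrays lay above all control arrays. The knockout difference was 2.66 ± 0.08 log2 units (SE) at day 2, which is 6.32-fold (adjusted p = 2.29e-06, 95% interval 2.48 to 2.84). The day 11 difference was 2.87 ± 0.08 log2 units, or 7.32-fold (adjusted p = 1.64e-06). Without the day 2 knockout replicate 1, the day 2 difference was 2.63 ± 0.10. The group means in falling order were 8.40 ± 0.07 (SD, n = 2) in day 11 knockouts, 8.35 ± 0.04 in day 2 knockouts, 5.69 ± 0.08 in day 2 controls and 5.53 ± 0.10 in day 11 controls. Csf1 was called with age in neither genotype, at -0.15 ± 0.08 in controls (adjusted p = 0.313) and 0.06 ± 0.08 in knockouts (adjusted p = 0.712). The difference between the ages in the knockout effect was 0.21 ± 0.11 and was not called (adjusted p = 0.39, 95% interval -0.04 to 0.47).

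Il34, the other ligand of CSF1R, is known from neurons and keratinocytes. Its signal was 4.18 and 4.09 in day 2 controls, 4.03 and 4.14 in day 2 knockouts, 3.98 and 4.19 in day 11 controls, and 4.37 and 4.11 in day 11 knockouts. The arrays of every pair of groups overlapped. The knockout difference was -0.05 ± 0.11 at day 2 (adjusted p = 0.813, 95% interval -0.30 to 0.20) and 0.16 ± 0.11 at day 11 (adjusted p = 0.404, 95% interval -0.09 to 0.41). As a description of a low probe set signal, 1157 olfactory and vomeronasal receptor genes, which are not known in macrophages, had a median of 3.41 over the arrays and a 95th percentile of 4.64. The lowest and highest Il34 arrays lay above 79.9% and 90.1% of these genes, so its signal is within their range.

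The other growth factors of the group are Csf2 (GM-CSF), Csf3 (G-CSF, the ligand of CSF3R), Flt3l (the ligand of FLT3) and Kitl (stem cell factor, the ligand of KIT). Their arrays ranged over 4.08 to 4.34, 5.22 to 5.67, 6.37 to 6.91 and 4.42 to 4.73. The knockout differences at day 2 were 0.16 for Csf2, 0.31 for Csf3, 0.07 for Flt3l and 0.17 for Kitl. At day 11 they were 0.19, 0.03, 0.16 and 0.06 in the same order. Only Csf3 at day 2 was called among these 8 differences (adjusted p = 0.0323). The call was lost without the day 2 control replicate 1 (difference 0.28), without replicate 2 (0.34) and without the day 2 knockout replicate 1 (0.21). It was also lost without either day 11 control. The difference then stayed at 0.31, since these arrays enter only the spread shared by the groups.

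Csf1r, the receptor of CSF1 and IL-34, rose in knockouts at both ages, and by less at day 11. Its signal was 10.23 on both day 2 control arrays, in values deposited with 2 decimals, and 11.28 and 11.24 on the day 2 knockout arrays. At day 11 it was 10.33 and 10.48 in controls and 10.93 and 10.74 in knockouts. Knockout and control arrays did not overlap at either age, and the 2 knockout groups did not overlap each other. The knockout difference was 1.03 ± 0.08 log2 units at day 2, or 2.04-fold (adjusted p = 0.000129), and 1.01 ± 0.11 without the day 2 knockout replicate 1 (adjusted p = 0.000922). At day 11 it was 0.43 ± 0.08, or 1.35-fold (adjusted p = 0.00929). That call was lost without the day 11 control replicate 1 (0.35, adjusted p = 0.0727) and without the day 11 knockout replicate 1 (0.34, adjusted p = 0.0536).

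With age, Csf1r fell by 0.42 ± 0.08 log2 units in knockouts (adjusted p = 0.0135), and the control difference was 0.18 ± 0.08 (adjusted p = 0.284). The fall in knockouts was not called without the day 2 knockout replicate 1 (-0.41, adjusted p = 0.0633) or the day 11 knockout replicate 2 (adjusted p = 0.0747). The day 11 knockout effect minus the day 2 effect was -0.60 ± 0.12 log2 units (adjusted p = 0.0403, beside 3.27% of all genes called for this difference and 1.99% in this direction). This last call held without the day 11 knockout replicate 1 and was lost without any other array, with adjusted p from 0.0511 to 0.139 (-0.58 and 0.0927 without the day 2 knockout replicate 1). The means ran from 11.26 ± 0.03 (SD, n = 2) in day 2 knockouts through 10.84 ± 0.13 in day 11 knockouts and 10.41 ± 0.11 in day 11 controls to 10.23 in day 2 controls, and the last 2 were not called different.

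Csf3r changed in opposite directions at the 2 ages. Its signal was 7.54 and 7.48 in day 2 controls and 8.92 and 8.69 in day 2 knockouts. On the day 11 arrays it was 8.16 and 8.14 in controls and 7.25 and 6.51 in knockouts. Each of the 4 groups was apart from the other 3 on its arrays, knockouts being highest at day 2 and lowest at day 11. At day 2 the knockout difference was 1.29 ± 0.21 log2 units, or 2.45-fold higher (adjusted p = 0.00321), and 1.18 ± 0.25 without the day 2 knockout replicate 1 (adjusted p = 0.0183). The day 11 value was -1.27 ± 0.21, or 2.41-fold lower (adjusted p = 0.00381).

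The 2 pools of day 11 knockouts differed by 0.74 log2 units in Csf3r, a larger gap than that of 99.3% of genes between these arrays. The day 11 difference was -0.90 without knockout replicate 2 and -1.64 without knockout replicate 1, and it was called in both. The difference between the day 11 and the day 2 effect was -2.56 ± 0.29 log2 units (adjusted p = 0.00443), a call that held in every alternative run (-2.45, adjusted p = 0.0117, without the day 2 knockout replicate 1). In knockouts Csf3r fell by 1.92 ± 0.21 log2 units with age, or 3.79-fold (adjusted p = 0.00109), and the value without the day 2 knockout replicate 1 was -1.81 (adjusted p = 0.00645). In controls the difference with age was 0.64 ± 0.21, or 1.56-fold, with no overlap of arrays (adjusted p = 0.123). It was called without either day 11 knockout array (adjusted p = 0.0125) and with only the control groups in the model (adjusted p = 0.003), that is, where the wide day 11 knockout pair did not enter the shared spread. In falling order the means were 8.80 ± 0.17 (SD, n = 2) in day 2 knockouts, 8.15 ± 0.01 in day 11 controls, 7.51 ± 0.04 in day 2 controls and 6.88 ± 0.52 in day 11 knockouts. Neighbours in this order other than the 2 control groups differ in both genotype and age and were not tested.

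Flt3 rose in knockouts at day 2 and not at day 11. Its signal was 4.47 and 4.74 in day 2 controls and 5.51 and 5.44 in day 2 knockouts. Day 11 signals were 4.34 and 4.65 in controls and 4.28 and 4.47 in knockouts. The day 2 knockouts lay above all 6 other arrays, whose groups overlapped or, for day 2 controls and day 11 knockouts, nearly met. The knockout difference was 0.87 ± 0.13 log2 units at day 2 (adjusted p = 0.00225), and 0.84 ± 0.16 without the day 2 knockout replicate 1 (adjusted p = 0.0125). The day 11 difference was -0.12 ± 0.13 (adjusted p = 0.614, 95% interval -0.42 to 0.17). Flt3 fell by 1.10 ± 0.13 with age in knockouts (adjusted p = 0.00162), with -1.07 (adjusted p = 0.00927) without the day 2 knockout replicate 1, and differed by -0.11 ± 0.13 in controls (adjusted p = 0.704).

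The day 11 effect on Flt3 minus that at day 2 was -0.99 ± 0.18 log2 units (adjusted p = 0.0293). Without the day 2 control replicate 1 or 2, the day 2 knockout replicate 1, the day 11 control replicate 2 or the day 11 knockout replicate 1 or 2, the adjusted p of this effect was 0.113, 0.0558, 0.0693, 0.0917, 0.0854 and 0.0504. The value without the day 2 knockout replicate 1 was -0.96. The means were 5.47 ± 0.05 (SD, n = 2) in day 2 knockouts, then 4.61 ± 0.19 in day 2 controls, 4.50 ± 0.22 in day 11 controls and 4.38 ± 0.13 in day 11 knockouts, the last 3 within their spread. The lowest and highest Flt3 arrays lay above 88.2% and 99.0% of the olfactory and vomeronasal receptor genes. The day 2 knockout arrays and 2 of the control arrays (4.74 and 4.65) lay above the 95th percentile of those genes, 4.64. Since the other arrays lay below it, Flt3 differences are given as signals and not as folds.

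Kit was called in no genotype comparison. Its signal was 5.08 and 5.26 in day 2 controls and 5.52 and 5.36 in day 2 knockouts. At day 11 it was 5.12 and 5.19 in controls and 5.07 and 5.08 in knockouts. The highest values were those of the day 2 knockouts, which did not overlap the day 2 controls. The difference there was 0.27 ± 0.08 log2 units (adjusted p = 0.0619, 95% interval 0.07 to 0.47), and it was called only without the day 2 knockout replicate 2 (0.35, adjusted p = 0.0454). Without replicate 1 it was 0.19 (adjusted p = 0.257). At day 11 it was -0.08 ± 0.08 (adjusted p = 0.623, 95% interval -0.28 to 0.12), and the age difference of the knockout effect was -0.35 ± 0.12 (adjusted p = 0.193).

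With age Kit fell by 0.36 ± 0.08 log2 units in knockouts, or 1.29-fold (adjusted p = 0.0256), and the control value was -0.01 ± 0.08. The fall in knockouts had an adjusted p of 0.129 without the day 2 knockout replicate 1 (-0.28), and of 0.0965 and 0.098 without the day 11 knockout replicates 1 and 2. The means were 5.44 ± 0.11 (SD, n = 2) in day 2 knockouts, 5.17 ± 0.13 in day 2 controls, 5.15 ± 0.05 in day 11 controls and 5.07 ± 0.01 in day 11 knockouts. Of these, no neighbouring pair was shown to differ. Over all 18782 genes, the span between the highest and lowest group mean put Csf1 (2.87) at the 99.1st percentile, Csf3r (1.92) at the 97.8th, Flt3 (1.10) at the 93.6th, Csf1r (1.03) at the 92.7th, Kit (0.36) at the 68.7th and Il34 (0.16) at the 33.5th.

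Among other receptors of these families, Trem2, a lipid and lectin-like immune receptor that signals through the adaptor TYROBP and is also described as an IL-34 receptor, rose by 0.99 ± 0.07 log2 units at day 2 (adjusted p = 5.12e-05) and by 1.57 ± 0.07 at day 11 (adjusted p = 1.09e-05). Its arrays read 9.33 and 9.33 in day 2 controls, 10.31 and 10.33 in day 2 knockouts, 9.17 and 9.30 in day 11 controls and 10.82 and 10.79 in day 11 knockouts. Csf2rb2, a mouse receptor chain for IL-3 closely related to the shared beta chain, rose by 0.42 ± 0.08 at day 2 (adjusted p = 0.00626), and its adjusted p was 0.0546 without the day 2 control replicate 2. At day 11 its difference was -0.09.

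The GM-CSF receptor chains were called at neither age. Csf2ra differed by 0.01 and then by 0.25 (adjusted p = 0.0518) at the later age, and Csf2rb by -0.005 and -0.13. Sdc1, a proteoglycan also described as an IL-34 receptor, differed by 1.07 at day 2 without a call (adjusted p = 0.159), its knockout arrays reading 7.57 in replicate 1 and 5.88 in replicate 2. Without replicate 1, the array that stood apart in interferon genes, it was 0.22 (adjusted p = 0.579), and without replicate 2 it was called, at 1.92 (adjusted p = 0.000915). The PDGF receptors, close relatives of CSF1R marking stromal cells, differed by -0.14 (Pdgfra) and 0.16 (Pdgfrb) at day 2. At day 11 both differences were below 0.01 in size. Ptprz1, a further IL-34 receptor, differed by 0.03 and -0.07 at the 2 ages. None of these was called. Since each probe set has its own scale, levels of these ligand and receptor genes are not compared with one another, and the olfactory and vomeronasal receptor genes serve only as a description of low signals.

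**Figure D2:**
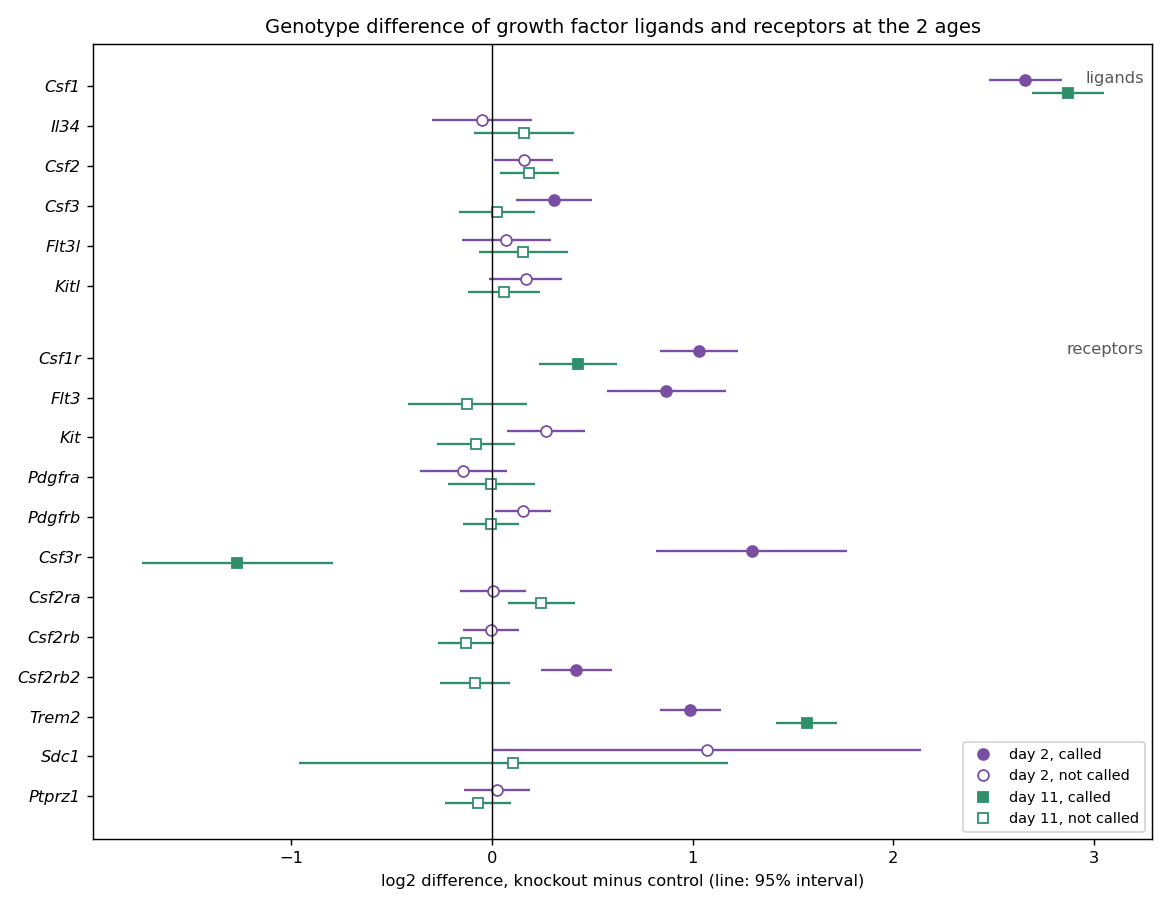
Knockout minus control difference in log2 units (horizontal axis, line for the 95% interval of the fit over 8 arrays) of 6 ligand and 12 receptor genes, at day 2 (circles) and day 11 (squares), filled where called. Csf1, Csf1r and Trem2 were called higher at both ages, and Csf3r lay at 1.29 at day 2 and at -1.27 at day 11.

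Genes downstream of CSF1R were read from a list of its adaptors, kinases and phosphatases. Of 23 measured, 6 rose and 2 fell in knockouts at day 2, and 6 rose and 1 fell at day 11, with medians of 0.06 and 0.03. For this list and those below, the shares over all genes were 8.86% higher and 11.2% lower at day 2. At day 11 they were 9.34% and 9.29%. Counts of falls in several lists were near or below these shares, and such a count is no result about its list. Src, a tyrosine kinase that the receptor activates, rose by 2.70 ± 0.14 (adjusted p = 1.66e-05) and 1.62 ± 0.14 (adjusted p = 0.000185) at the 2 ages, and the docking protein gene Dok2 rose by 0.71 ± 0.10 and 1.13 ± 0.10. At day 11 Pik3cd, a catalytic subunit of PI 3-kinase, rose by 0.70 ± 0.08, and Themis2 fell by 0.69 ± 0.07. The count of rises was 3 at day 2 without the day 2 control replicate 2, and 3 at day 11 without the day 11 control replicate 1 or knockout replicate 2. The 2 falls at day 2 dropped to 1 or 0 without any array.

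Of 22 measured genes of a list drawn up for the response to CSF1, 12 rose and 5 fell at day 2, and 10 rose and 5 fell at day 11, with medians of 0.40 and 0.37. The list also holds transcription factor genes such as Spi1, Cebpa and Runx3, so it is not a measure of a CSF1 response. At day 2 the largest rises were those of the monocyte chemokine gene Ccl2 (3.80 ± 0.22, adjusted p = 2.96e-05) and of the transcription factor genes Runx3 (3.24 ± 0.12) and Maf (2.39 ± 0.26). At day 11 they were those of cyclin D1 (Ccnd1, 2.33 ± 0.15), urokinase (Plau, 2.24 ± 0.10) and Ccl2 (1.92 ± 0.22). Id1, an inhibitor of helix-loop-helix factors, fell by 0.74 ± 0.08 and 0.72 ± 0.08 at the 2 ages, and Dusp5, a phosphatase of ERK kinases, fell by 0.82 ± 0.06 at day 11. The members thus went both ways. Without the day 2 control replicate 1, control replicate 2 or knockout replicate 2, the falls at day 2 numbered 1, 3 and 2, and without the day 11 control replicate 1 the rises at day 11 numbered 6.

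Of 24 genes of G-CSF signalling, 9 rose and 3 fell at day 2, and 5 rose and 4 fell at day 11, with a median of 0.06 at both ages. Socs3, the feedback inhibitor of CSF3R and STAT3, rose by 1.91 ± 0.20 at day 2 (adjusted p = 0.000437) and by 2.73 ± 0.20 at day 11 (adjusted p = 8.17e-05), while Csf3r rose at the first age and fell at the second. Bcl3, a nuclear partner of NF-kappaB, rose by 1.83 ± 0.13 and 0.88 ± 0.13, and the kinase gene Jak2 rose by 0.95 ± 0.11 at day 2. At day 11 the chemokine receptor gene Cxcr4 rose by 0.82 ± 0.08, and Cebpb and Cebpa, transcription factors of granulocytes and macrophages, fell by 0.59 ± 0.08 and 0.45 ± 0.06. The day 2 falls numbered 1 without control replicate 1 and 0 without knockout replicate 2, and the day 11 falls 2 without either control or without knockout replicate 2.

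Of 21 genes of FLT3 signalling and of the dendritic cell factors downstream of it, 8 rose and 1 fell at day 2 (median 0.24), and 6 rose and 2 fell at day 11 (median 0.00). The transcription factor genes Irf4 (4.04 ± 0.30, adjusted p = 8.85e-05), Bcl6 (0.85 ± 0.10) and Tcf4 (0.78 ± 0.06) rose most at day 2. Irf4 (1.93 ± 0.30) and Tcf4 (0.93 ± 0.06) also rose at day 11, when Flt3 did not. Of 22 genes of KIT signalling, 5 rose and 1 fell at day 2, and 4 rose and 1 fell at day 11. Lyl1, a progenitor transcription factor, rose by 1.20 ± 0.12 and 1.49 ± 0.12, and its partner Lmo2 by 0.84 ± 0.12 at day 2. Without day 2 control replicate 2 the FLT3 list had 5 rises at day 2, and the falls of both lists numbered 0 without either day 2 control, as did that of the FLT3 list without the day 2 knockout replicate 1. The KIT list had 3 rises without either day 2 control or the knockout replicate 2 and 2 at day 11 without control replicate 1. At day 11 the FLT3 falls numbered 0 without control replicate 2 or knockout replicate 2 and 1 without any other array but the day 2 knockouts, and the KIT fall was lost without either control or knockout replicate 2.

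Markers of neutrophils and dendritic cells, the cell types known for CSF3R and FLT3, were also higher in day 2 knockouts. So were those of monocytes and interstitial macrophages, given further below. Of 19 neutrophil markers other than Csf3r, 12 rose in day 2 knockouts and 1 fell. Their median signal was 6.05 to 6.11 there and 4.89 to 5.08 on the other 6 arrays. Mmp8 (neutrophil collagenase, 4.40 ± 0.14, adjusted p = 2.37e-06), Il1r2 (a decoy receptor of IL-1, 3.81 ± 0.09) and Stfa1 (a cystatin, 3.28 ± 0.27) rose most. The late granule gene Ngp read 5.99 and 6.29 in day 2 knockouts against 3.85 and 4.42 in controls. The early granule genes Mpo (4.86 to 5.08) and Elane (4.44 to 4.66) were flat over the 8 arrays, and Cxcr2, the neutrophil chemokine receptor, was lower in day 2 knockouts (6.05 and 6.11 against 6.73 and 6.99). The call of Cxcr2 was lost without the day 2 control replicate 2 or either day 2 knockout. At day 11, where Csf3r fell, 3 of the 19 rose, Mmp8 by 3.23 ± 0.14, S100a8 by 1.33 ± 0.15 and Il1r2 by 1.02 ± 0.09, and 1, Cxcr2, fell, a call lost without any day 2 or day 11 control or the day 11 knockout replicate 2.

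Of 20 dendritic cell markers other than Flt3, 12 rose and 1 fell in day 2 knockouts, where their median signal was 6.92 to 7.27 beside 5.54 to 6.03 on the other 6 arrays. Irf4, Cd209a (DC-SIGN family, 3.81 ± 0.27) and Clec9a (a receptor for dead cells, 2.49 ± 0.18) rose most. The marker that fell was Wdfy4 (-0.49 ± 0.08), which also fell at day 11. The defining markers Zbtb46 (4.88 to 5.33), Xcr1 (4.08 to 4.41) and Siglech (4.85 to 5.10) were flat over the 8 arrays. At day 11, 5 rose and 3 fell, with Clec9a at 3.05 ± 0.18, while Ccl17 and Ccl22, chemokines for CCR4, fell by 2.19 ± 0.26 and 0.88 ± 0.15.

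Of 16 mast cell and basophil markers other than Kit, 2 rose in day 2 knockouts, Hdc (histamine synthesis, 1.05 ± 0.19) and Cpa3 (a protease, 0.38 ± 0.10), both lost without the day 2 control replicate 1. The call of Cpa3 was also lost without any other array except the day 2 control and knockout replicates 2. At day 11, 1 rose, a call lost without either control or knockout replicate 1. The median signal of the list was 3.80 to 4.01 on all arrays, and the IgE receptor genes Fcer1a (3.59 to 3.74) and Ms4a2 (3.13 to 3.22) were flat. Of 15 monocyte markers, 9 rose and 1 fell at day 2 and 4 rose and 2 fell at day 11. Their median signal was 6.68 to 6.99 in day 2 controls. In day 2 knockouts it was 9.01 in replicate 1, which stood apart in interferon genes, and 7.49 in replicate 2. It was 6.08 to 6.23 in day 11 controls and 7.19 to 7.37 in day 11 knockouts. Ccr2, the receptor of CCL2, rose by 2.71 ± 0.10 and 2.25 ± 0.10, and Cx3cr1 by 3.46 ± 0.13 and 1.36 ± 0.13. The fall at day 2 was that of Chil3 (-2.20 ± 0.35, and -1.54 without the day 2 knockout replicate 1). Those at day 11 were of Treml4 and Spn. Treml4 read 9.64 and 9.65 in day 11 controls against 7.37 and 7.19 in knockouts, and Spn 6.29 and 6.2 against 5.59 and 5.73.

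Of 19 markers of interstitial macrophages, 12 rose and 1 fell at day 2 and 8 rose and 1 fell at day 11, led at day 2 by the complement genes C1qc (4.85 ± 0.13), C1qb and C1qa. The fall, of Mrc1, was lost at day 2 without either day 2 control, and at day 11 without any single day 11 array. Of 15 markers of progenitors, the cells in which KIT and FLT3 are best known, 1 rose and 1 fell at day 2, Cd34 (0.79 ± 0.10) and Epor (-0.44 ± 0.08), and 0 rose and 2 fell at day 11. The day 11 falls were 1 without any control or the day 11 knockout replicate 1, and the day 2 falls 2 without either day 11 knockout. Of 16 endothelial markers, Pecam1 and Eng among them, 5 rose and 1 fell at day 2, and 2 rose and 1 fell at day 11. The rises at day 11 were 1 without either day 11 control or knockout replicate 1. The fall at day 2 was lost without any array except the day 2 knockout replicate 2 and the day 11 controls, and that at day 11 without any control or the day 11 knockout replicate 1. Of 17 markers of T, NK and innate lymphoid cells 3 rose at each age and 0 fell. Of 11 B cell markers 0 were called at day 2, and 0 rose and 2 fell at day 11 (1 without any array except the day 2 knockouts and the day 11 control replicate 2). The part of other cell types and of the gates in the differences of the 6 genes was not tested.

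**Figure D3:**
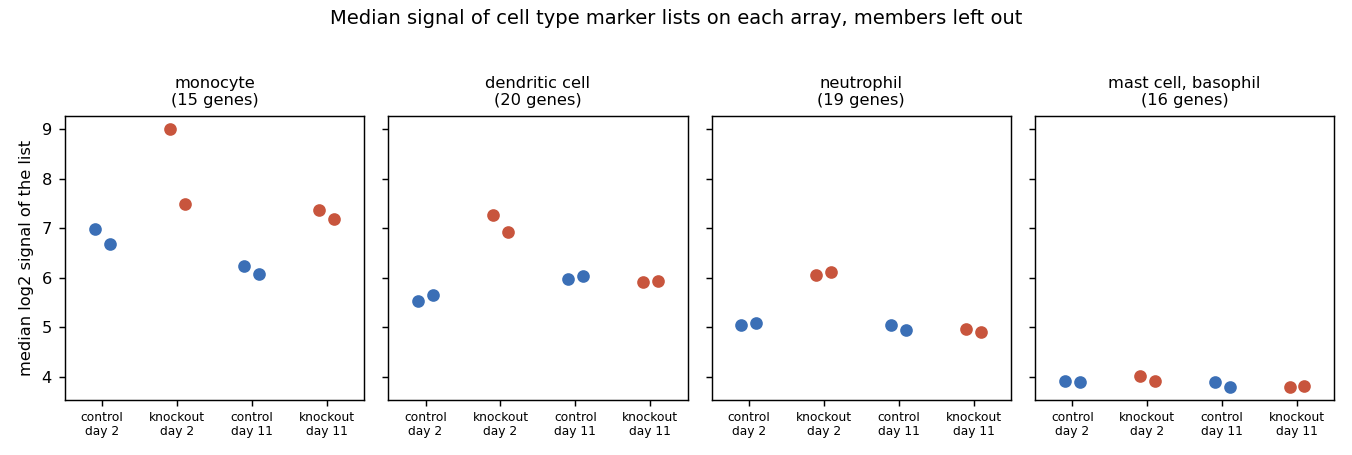
Median log2 signal (vertical axis) of markers of monocytes, dendritic cells, neutrophils, and mast cells with basophils on each array (points, blue for controls and red for knockouts), leaving out the 6 growth factor genes. Monocyte, neutrophil and dendritic cell lists were highest in day 2 knockouts, and the mast cell and basophil list stayed between 3.80 and 4.01. The monocyte list was 9.01 in day 2 knockout replicate 1 and 7.49 in replicate 2, beside 7.19 to 7.37 in day 11 knockouts.

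Over the 8 arrays, pairs of the genes followed each other to different degrees, given as a description since the arrays share groups. Pearson's r was 0.895 between Csf1 and Csf1r, 0.950 between Flt3 and Kit, 0.784 between Csf3r and Kit, 0.746 between Csf3r and Flt3 and -0.01 between Csf1 and Csf3r. For the 4 genes whose group means spanned at least 1 log2 unit, the genes of most similar profile were sought among 1386 genes with such a span. For Csf1 they were Kcnn4, a potassium channel (r = 0.998), Plau (0.997) and Papss2, an enzyme that makes the sulfate donor (0.996). Like Csf1, Kcnn4 was at 5.91 and 5.80 in the control groups and 9.74 and 9.71 in the knockout groups. For Csf1r they were Eng, a TGF-beta co-receptor (0.992), Unc13d, a factor of granule release (0.985), and Pde2a, a phosphodiesterase (0.982).

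For Csf3r they were Cd300e, a myeloid receptor (0.912), Ccl22 (0.900) and Pilrb1, an activating receptor (0.877). Cd300e and Ccl22 were, like Csf3r, highest in day 2 knockouts, at 8.15 and 7.06, and lowest in day 11 knockouts, at 6.16 and 5.33. For Flt3 they were the adhesion gene Pecam1 (0.979), the actin bundling gene Fscn1 (0.975) and Olfm4, a neutrophil granule gene (0.970). Pecam1 read 7.41 and 7.43 in day 2 knockouts and 5.40 to 5.77 on the 6 other arrays.

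**Figure D4:**
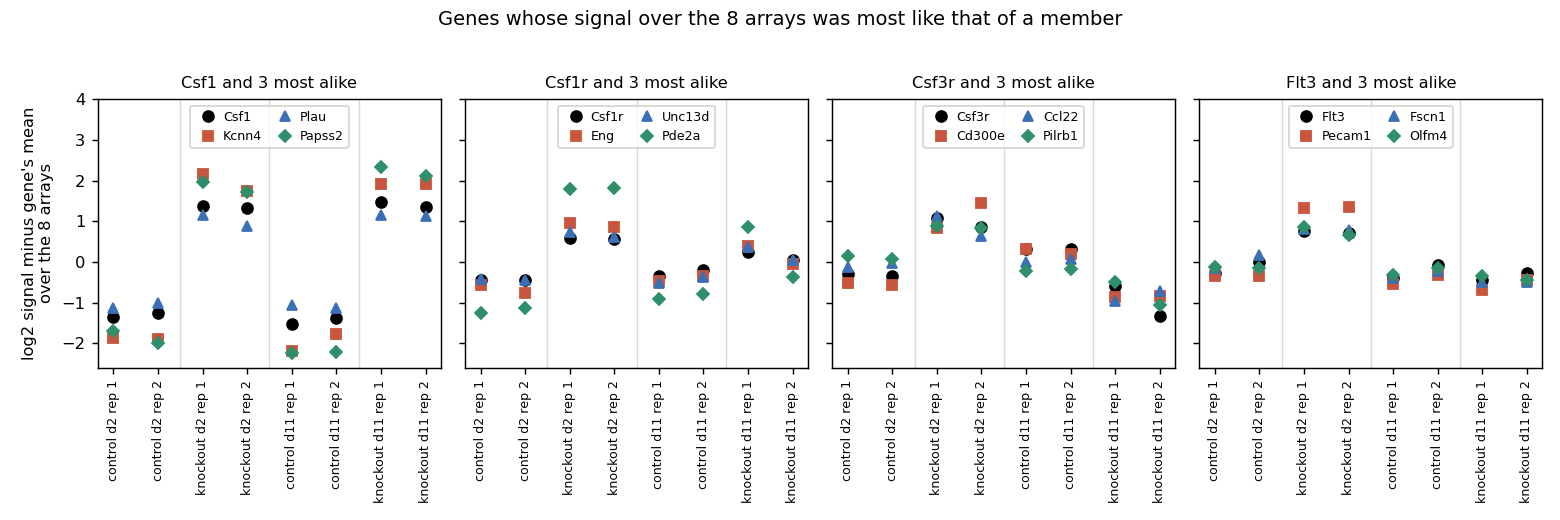
Log2 signal minus the mean of the gene over 8 arrays (vertical axis), for Csf1, Csf1r, Csf3r and Flt3 (black circles) and the 3 genes of highest Pearson correlation with each (coloured markers), on every array (horizontal axis, vertical lines between groups). Csf1 and its 3 genes were high on all 4 knockout arrays, while Flt3 and its 3 genes were high only in day 2 knockouts.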

How the data were processed

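The deposited values are log2 signals of 8 Affymetrix arrays that, per the submitters' processing notes, came from RMA run in R 2.15.2. RMA gives all arrays 1 distribution, so a shift of all genes cannot be seen. The sources used here do not give the level of summarisation, and scanner files were not used. Of 28874 probe sets, 21159 had 1 gene symbol, 1881 several and 5834 no entry. The brightest probe set per gene was kept, leaving 18782 genes.

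Group means were fitted to all 8 arrays with limma 3.58.1 in R 4.3.3 (4 residual and 3.77 prior degrees of freedom). P-values were adjusted over 18782 genes per contrast and measure the spread between these pools, whose number limits the precision. Errors are SE of the fit unless named SD. Tested on simulated data at day 2, the fit called 72% of genes changed by 0.5 log2 units and 94% of those changed by 1, with 13 false calls. The simulation had independent noise and 50 changed genes per size, far fewer than were called in the real data. These shares therefore do not give the power in the real data. Python 3.11.15 with matplotlib 3.10.9 drew the figures.

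Members and gene lists were chosen with earlier results of these data known. Named genes are the 6 members, all measured ligands and receptors, and, per other list, up to 3 rises and 3 falls among called genes whose arrays did not overlap. Of these, genes were described whose call held under every alternative, though not every such gene was described. Pparg, Fabp4, Siglecf, Itgam, Cxcr2, Hdc, Cpa3, Mrc1, Epor, Ngp and the flat defining markers were added after their values were seen. Alternatives left out each array in turn, added the replicate number as a block, and changed the prior, the filter on low values, the groups fitted, the probe set per gene, the features tested and the centring.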

Additional observations from a re-analysis of the deposited data

Results flagged for a closer look

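For 3 of the 6 genes the knockout effect differed between the ages by the test of that difference itself, where 3.27% of all genes were called and 1.99% in this direction. The day 11 effect minus the day 2 effect was -2.56 ± 0.29 log2 units for Csf3r (adjusted p = 0.00443), -0.99 ± 0.18 for Flt3 (adjusted p = 0.0293) and -0.6 ± 0.12 for Csf1r (adjusted p = 0.0403). The Csf3r call held in all 14 alternatives. The Flt3 call was lost without each of 6 arrays, and the Csf1r call without each of 7 arrays, with the replicate number as a block and over all probe sets. For Csf3r the effect changed sign between the ages, with no overlap of arrays at either.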

How the results depend on the processing

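Each of 30 results, 6 genes in 5 contrasts, was recomputed under up to 15 alternatives. Of 14 called, 9 kept their call and direction in every alternative, and of 16 not called, 14 had no call in any. No called value changed sign, while 7 uncalled values near 0 did. The calls lost or gained without an array are given with each gene. Beyond those, with only the 2 groups compared, the falls of Csf1r and Kit with age in knockouts had adjusted p of 0.0534 and 0.0626, and the age difference of the Csf1r effect had 0.0558 over all probe sets. Csf2ra at day 11 was called with the trend prior (adjusted p = 0.0142) and the filter on low values (0.0356), and Csf3 at day 2 lost its call with only the 2 groups compared (0.0876). Il34, Flt3 and Kit were absent under the filter on low values. The number of genes called was 3774 at day 2 (2223 to 3605 leaving out 1 array, lowest without control replicate 2, with 2428 without control replicate 1), 3500 at day 11 (2059 to 3760, lowest without day 11 control replicate 1), 996 with age in controls (233 to 1292) and 2915 with age in knockouts (1541 to 2985), and 615 for the age difference of the effect (197 to 942). With only the 2 groups compared it was 1581 with age in controls and 1466 with age in knockouts.

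The replicate block changed 1 call of the 6 genes, the age difference of the Csf1r effect (-0.60, adjusted p = 0.0589), and also called Csf2ra at day 11 (adjusted p = 0.0438). Cxcr2 at day 11 (adjusted p = 0.0505) and Cpa3 at day 2 (0.0552) lost their calls with it. It gave 3692, 3415, 975, 2823 and 558 genes in the order above. Deviations of equal replicate numbers correlated at -0.08 to 0.25 between groups, above 0.1 in 2 of 6 pairs of groups. With 2 arrays per group this cannot show whether the numbers pair the arrays. The main fit had no block because no label says that a number marks a shared litter, batch or day.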
